A study of Mus musculus with 10 samples.

Results

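Hemoglobin and erythroid transcripts were followed in the whole brains of *Arid1b* heterozygous (HT) and wild-type (WT) mice. The rule named 8 genes by their symbols: the globins *Hba-a1*, *Hba-a2*, *Hbb-bs*, *Hbb-bt* and *Hbb-y*, the heme synthesis gene *Alas2*, the membrane gene *Slc4a1* and the chaperone gene *Ahsp*. Of these, 6 had values among the 18444 genes of the table, and *Hbb-y* and *Ahsp* were not analysed here. Poly-A-selected RNA came from 10 male C57BL/6N pups at postnatal day 3 (P3), with 5 mice per genotype and 1 library per mouse. HT mice carried the exon 5 edit, made by CRISPR/Cas9 and truncating the protein, on 1 *Arid1b* allele. WT mice carried none, and the labels give no treatment for either group. According to the study's methods, brains were dissected into an RNA-stabilising solution, and no perfusion is described for them.

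Red blood cells carry oxygen on hemoglobin, a tetramer of alpha and beta chains that each hold a heme group. Their late precursors fill the cytoplasm with globin mRNA, then expel the nucleus and enter the blood as reticulocytes, which keep this mRNA for a short time before it decays. Reticulocytes in vessels can thus bring globin mRNA into unperfused tissue, and globin expression has also been described in some neurons.

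The alpha chain is made from 2 nearly identical genes on chromosome 11, *Hba-a1* (ENSMUSG00000069919; GRCm38 32283511 to 32284465, plus strand) and *Hba-a2* (ENSMUSG00000069917; 32296489 to 32297298, plus strand). The adult beta chain is made from *Hbb-bs* (ENSMUSG00000052305; chromosome 7, 103826534 to 103828096, minus strand) and *Hbb-bt* (ENSMUSG00000073940; chromosome 7, 103812524 to 103813996, minus strand). *Alas2* (ENSMUSG00000025270; chromosome X, 150547375 to 150570638, plus strand) encodes the erythroid 5-aminolevulinate synthase, which starts heme synthesis. *Slc4a1* (ENSMUSG00000006574; chromosome 11, 102348824 to 102366203, minus strand) encodes band 3, the anion exchanger that anchors the red cell membrane to its skeleton.

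The promoters below are shown because these transcripts were high in the same libraries. Each line gives the 150 bases before the RefSeq start of the gene (GRCm38.p6), 5′ to 3′ on the coding strand. Capitals mark matches, on either strand, to 4 motifs. The TATA motif was searched as TATAAG and as TATAAA. The CAAT box was searched as CCAAT, and the CACCC box was searched as CCACACCC. The GATA motif was searched as AGATAA and as TGATAA.
*Hba-a2*, chr11:32296342-32296491: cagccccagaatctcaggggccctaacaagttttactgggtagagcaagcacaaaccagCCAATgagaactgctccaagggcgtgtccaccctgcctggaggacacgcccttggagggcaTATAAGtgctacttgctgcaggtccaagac
*Hbb-bs*, chr7:103827929-103828078: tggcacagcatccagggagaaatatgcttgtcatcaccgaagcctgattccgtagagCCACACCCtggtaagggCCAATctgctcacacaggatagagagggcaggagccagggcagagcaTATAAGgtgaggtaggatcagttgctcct
*Hbb-bt*, chr7:103813924-103814073: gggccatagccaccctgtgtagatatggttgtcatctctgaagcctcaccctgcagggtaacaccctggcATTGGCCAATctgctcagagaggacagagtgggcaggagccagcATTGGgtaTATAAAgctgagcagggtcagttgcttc
*Alas2*, chrX:150547267-150547416: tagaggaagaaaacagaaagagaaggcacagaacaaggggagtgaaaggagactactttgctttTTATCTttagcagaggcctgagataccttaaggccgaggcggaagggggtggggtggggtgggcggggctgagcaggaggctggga

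The globin promoters had TATA and CCAAT words in common, while the place and number of the CCAAT words differed. *Hba-a2*, *Hbb-bs* and *Hbb-bt* each held 1 TATA word, 30, 29 and 28 bases before the start, and at least 1 CCAAT word. The alpha promoters could not be told apart, since all 247 bases that the 250-base windows of *Hba-a1* and *Hba-a2* had in common were identical. The CCACACCC word was found in *Hbb-bs*, 93 bases before the start, and not in the other windows. The *Alas2* window held 1 GATA word and no TATA or CCAAT word. Among 32851 RefSeq promoter windows of this length, a TATA word was present in 10.7%, CCAAT in 24.5%, CCACACCC in 2.18% and a GATA word in 9.65%. These matches describe letters only, binding was not measured, and a link to the shared pattern over libraries was not tested.

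The likeness of the gene pairs extends to the mRNA and limits how far they can be separated. Of the 31-base words of the annotated transcripts, 92.6% in *Hba-a2* and 75.5% in *Hba-a1* occurred in another gene, nearly all of them in the partner gene. In *Hbb-bs* and *Hbb-bt* 54.4% and 59.4% were shared, in *Alas2* 13.1% (11.8% with its neighbour *Apex2*) and in *Slc4a1* 0%. The split within the alpha pair, and to a lesser degree within the beta pair, therefore rests on how Salmon divided the shared reads. The sum of each pair, also a Salmon estimate, hardly depends on that division.

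Values are normalised read counts, the estimated reads of a gene divided by the size factor of its library, and each library held between 27.2 M and 29.03 M normalised counts (M, mega). The library HT 4 stood apart over all genes, with a limma sample weight of 0.171 against 0.858 to 1.52 in the others. *Arid1b*, the edited gene, matched the genotype labels in 10 of 10 libraries, with 1505 to 2372 normalised counts in HT and 3108 to 3597 in WT. The brain markers *Snap25*, *Syt1*, *Tubb3*, *Map2* and others of a list of 12 genes of neurons and glia summed to between 185030 and 201560 counts in HT and between 188790 and 195200 in WT.

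Globin mRNA was found in every brain and differed widely between mice of the same genotype, with sums of the 4 globins from 5851 to 13447 normalised counts in HT and from 4464 to 13579 in WT. *Hba-a1* had 1637, 1386, 3144, 3092 and 3514 normalised counts in HT 1 to HT 5, and 1916, 1820, 1235, 1069 and 3120 in WT 1 to WT 5. HT 3, HT 4, HT 5 and WT 5 were at 3092 or more, the other 6 libraries at 1916 or less, and the genotypes overlapped. *Hba-a2* had 2081, 1946, 4358, 3791 and 4184 in HT, and 2559, 2146, 1836, 1415 and 4542 in WT. Its highest and its lowest library were both WT.

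The beta globins showed the same libraries high and low. *Hbb-bs* had 2352, 2074, 4600.4, 4483 and 4619 normalised counts in HT 1 to HT 5, and 2842, 2627, 1882, 1680.4 and 4753 in WT 1 to WT 5. *Hbb-bt* had 501, 445, 1002, 1087 and 1129 in HT, and 590, 453, 408, 300.5 and 1164 in WT. For both genes WT 5 was the highest of all 10 libraries and WT 4 the lowest, so that the whole range was found within the wild type. The 4 globins together took between 0.0157% (WT 4) and 0.0476% (WT 5) of all normalised counts, a 3.03-fold range.

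The 2 erythroid genes that are not globins followed at lower levels. *Alas2* had 113, 85.9, 257, 178 and 221 normalised counts in HT 1 to HT 5, and 117, 143, 84.0, 55.3 and 234 in WT 1 to WT 5. *Slc4a1* had 21.8, 20.1, 81.0, 26.5 and 55.4 in HT, and 12.3, 16.1, 14.5, 3.34 and 62.1 in WT. HT 3 was the highest library for both and WT 4 the lowest. The range from the lowest to the highest library was 2.83-fold for *Hbb-bs*, 3.87-fold for *Hbb-bt*, 4.64-fold for *Alas2* and 24.2-fold for *Slc4a1*.

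**Figure D1:**
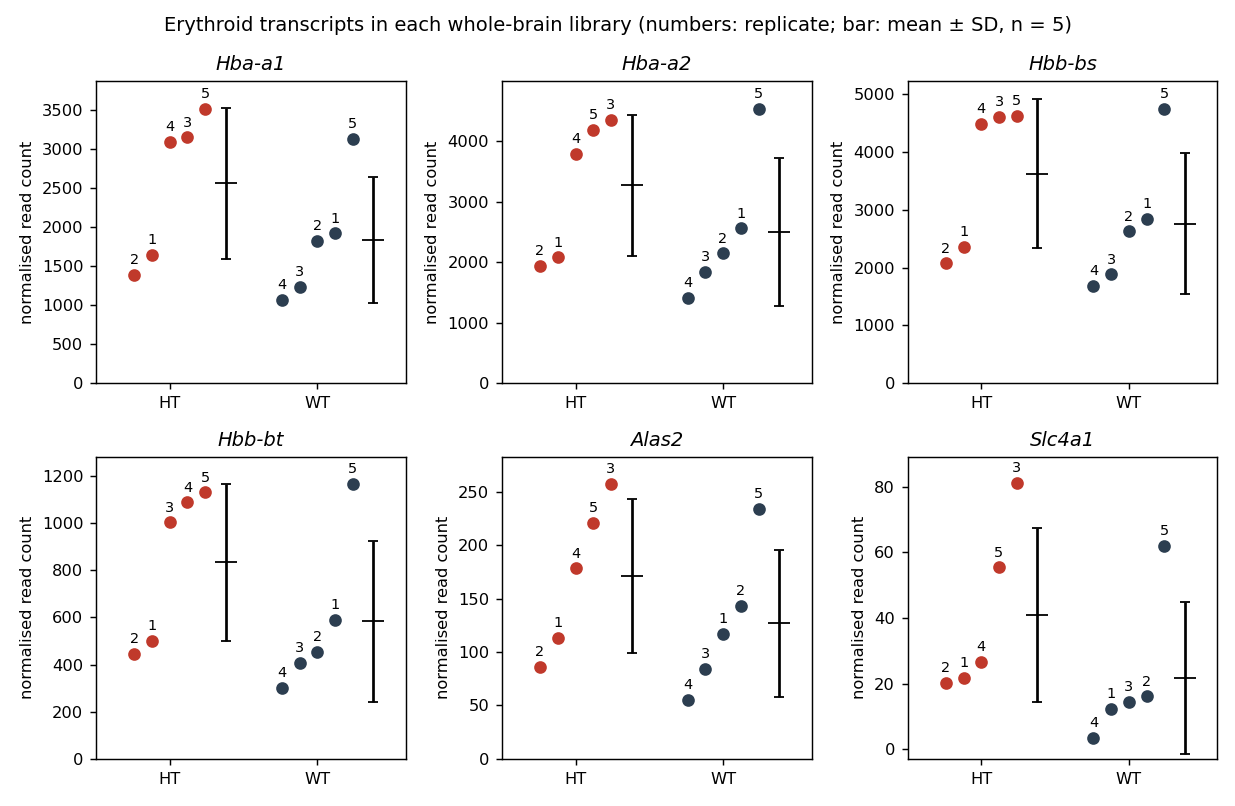
Normalised read counts of the 6 erythroid transcripts (linear axes) in each HT (red) and WT (dark) library, with the replicate number above each point and the mean ± SD (n = 5) as a black bar. HT 3, HT 4, HT 5 and WT 5 are the 4 highest libraries in all 6 panels, WT 4 is the lowest, and HT and WT overlap for every gene.

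HT 3, HT 4, HT 5 and WT 5 were the 4 highest libraries for 6 of 6 transcripts. In the *Hba-a1* values a gap of 1.61-fold separated them from the other 6 libraries. This gap was 1.70-fold for *Hbb-bt*, 1.58-fold for *Hbb-bs*, 1.48-fold for *Hba-a2*, 1.24-fold for *Alas2* and 1.22-fold for *Slc4a1*. It was the widest gap for the globins only. *Alas2* rose more steeply from 55.3 in WT 4 to 84.0 in WT 3. *Slc4a1* rose most steeply from 3.34 in WT 4 to 12.3 in WT 1, and also more steeply from 26.5 in HT 4 to 55.4 in HT 5. The same 4 libraries were highest for all 6 when each library was scaled to the same total and when a trend on transcript length and GC content was removed, both alternatives being chosen after seeing the data. HT 4, the library that stood apart, had rank 4 for 6 of 6 with the trend removed. Its log2 deviation from the mean fell from 0.62 to 0.26 for *Hba-a1*, from 0.51 to 0.14 for *Hba-a2* and from 0.78 to 0.47 for *Hbb-bt*. For the long *Slc4a1* transcript this deviation was 0.21 and 0.28. No label gives a litter, a day or a batch that these 4 libraries share.

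The 4 globins also varied together among the other 6 libraries (HT 1, HT 2 and WT 1 to WT 4). Since the globin values split the libraries into separate clusters, correlations were computed over these 6 alone, on the log2 scale. This choice was made from the values of the same genes after they were seen, in place of the planned 10 libraries. The 6 mix both genotypes without adjustment, so the p-values below describe these 6 libraries and are no independent test. The 15 pairs of the 6 genes had exact two-sided permutation tests, adjusted over the 15 pairs. For *Alas2* and *Slc4a1* the split was not the widest gap, and leaving out their highest libraries narrowed their range. The 6 globin pairs had Pearson r from 0.894 to 0.996 and Spearman rho from 0.943 to 1, with exact adjusted p from 0.00694 to 0.0179 for r. *Hba-a1* and *Hbb-bs*, which lie on different chromosomes and share no chain, had r = 0.996 (rho = 1, exact p = 0.00139, the smallest that 6 libraries can give) and 0.998 without the 2 libraries farthest from the median of *Hba-a1*. *Alas2* had r = 0.941 with *Hba-a1* (rho = 0.943, exact adjusted p = 0.0179) and 0.963 without the 2 farthest. *Alas2* and *Hbb-bt* did not pass (r = 0.819, rho = 0.829, exact adjusted p = 0.0813), and r was 0.535 without the 2 farthest. *Slc4a1* had r from 0.544 to 0.729 with the other genes, and none of its 5 pairs passed (smallest exact adjusted p 0.1705). Without the 2 farthest libraries the *Hbb-bs* and *Hbb-bt* pair fell to r = 0.658 over 4 libraries. The pairs within a chain share reads, and all pairs share the libraries and their size factors.

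The composition of the globin mRNA was much steadier than its amount. Levels are compared between genes only per kilobase (kb) of the longest annotated coding transcript. The summed alpha globins averaged 9561 ± 3479 per kb in HT against 7133 ± 3338 in WT, and the summed beta globins 6958 ± 2530 against 5219 ± 2418 (SD over 5 mice). The alpha to beta ratio, in contrast, ranged from 1.297 (HT 4) to 1.42 (WT 3), at 1.38 ± 0.047 in HT against 1.36 ± 0.039 in WT. Its coefficient of variation over the 10 libraries was 3.01%, against 41.4% for the alpha and 41.2% for the beta sum. Not scaled to length the ratio was 1.31 ± 0.043 in HT and 1.296 ± 0.031 in WT.

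**Figure D2:**
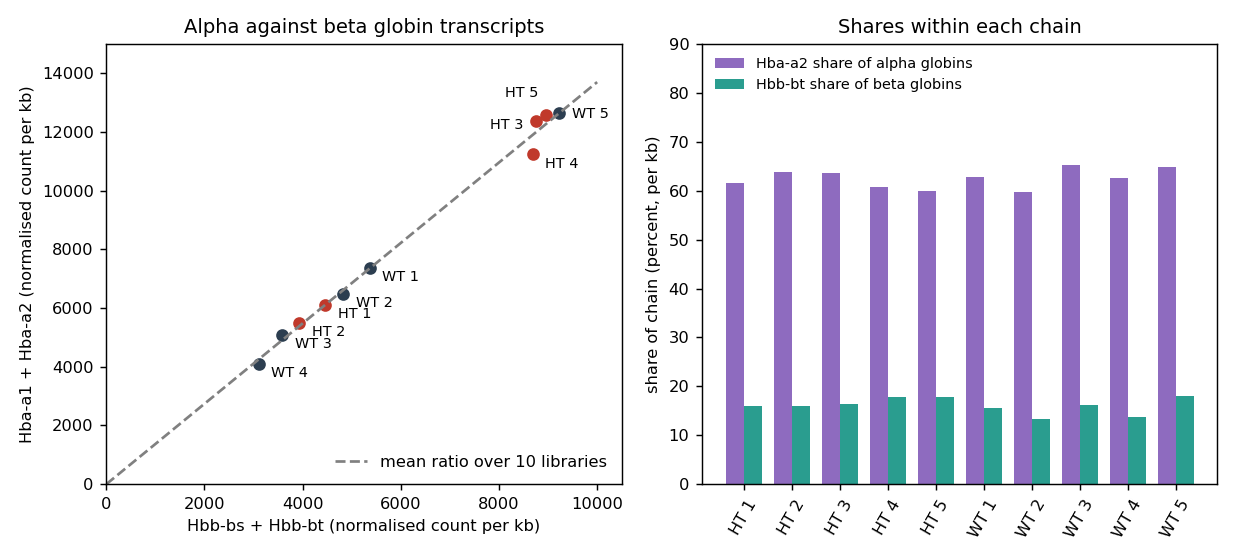
Left, summed alpha globins against summed beta globins in normalised counts per kb (linear axes) for each HT (red) and WT (dark) library, with a dashed line through 0 at the mean ratio. Right, the share of *Hba-a2* in the alpha and of *Hbb-bt* in the beta globins in each library (percent, per kb); amounts spread about 3-fold along the line, while the *Hba-a2* share stays between 59.8% and 65.2%.

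Within the alpha pair *Hba-a2* made up 62.0% ± 1.72 in HT against 63.0% ± 2.15 in WT (SD over 5 mice, per kb), a split that the shared sequence leaves uncertain. Within the beta pair *Hbb-bt* made up 16.8% ± 0.959 in HT and 15.4% ± 1.88 in WT, and *Hbb-bs* outweighed it from 4.57-fold (WT 5) to 6.49-fold (WT 2). The *Hbb-bt* share was 16.3% to 17.95% in the 4 libraries with the most globin and 13.3% to 16.2% in the other 6, and the genotypes overlapped. These ranges nearly touch, and the 4 libraries were also the highest for *Hbb-bt* itself, so a higher share there is partly built in. Shared sequence limits the beta split as well.

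The order of levels per kb was *Hba-a2*, *Hbb-bs*, *Hba-a1*, *Hbb-bt*, *Alas2* and *Slc4a1*. The first 2 did not differ beyond their spread, since *Hba-a2* was the higher in 7 of 10 libraries per kb and in 0 of 10 without scaling to length. Every later step in the order held in 10 of 10 libraries. *Hbb-bs* exceeded *Hba-a1* by a median of 1.64-fold, *Hba-a1* exceeded *Hbb-bt* by 3.15-fold, *Hbb-bt* exceeded *Alas2* by 14.5-fold and *Alas2* exceeded *Slc4a1* by 12.3-fold, all per kb. The annotated *Hba-a1* transcript (699 bases) is longer than that of *Hba-a2* (554 bases), which lowers the *Hba-a1* level per kb. The 4 globins were together 202 ± 25.1 times as high as *Alas2* in HT against 210 ± 38.5 times in WT (per kb). The ratio of *Alas2* to *Slc4a1* was less steady, from 7.08 (HT 3) to 36.95 (WT 4), where *Slc4a1* had few reads.

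The spread of these genes between mice was large for their level. Within genotype the SD was 0.61 for *Hba-a1*, 0.60 for *Hba-a2*, 0.58 for *Hbb-bs*, 0.70 for *Hbb-bt*, 0.72 for *Alas2* and 1.15 for *Slc4a1* on the log2 scale, where the median over all 17020 genes tested was 0.16. Each gene was set beside the 500 tested genes nearest to it in mean log2 level. *Hba-a1*, *Hba-a2* and *Hbb-bt* had a higher SD than 100% of these, *Hbb-bs* than 99.8%, *Alas2* than 99.4% and *Slc4a1* than 97.8%. This is a description of single genes, and since the 6 vary together it is close to 1 observation.

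**Figure D3:**
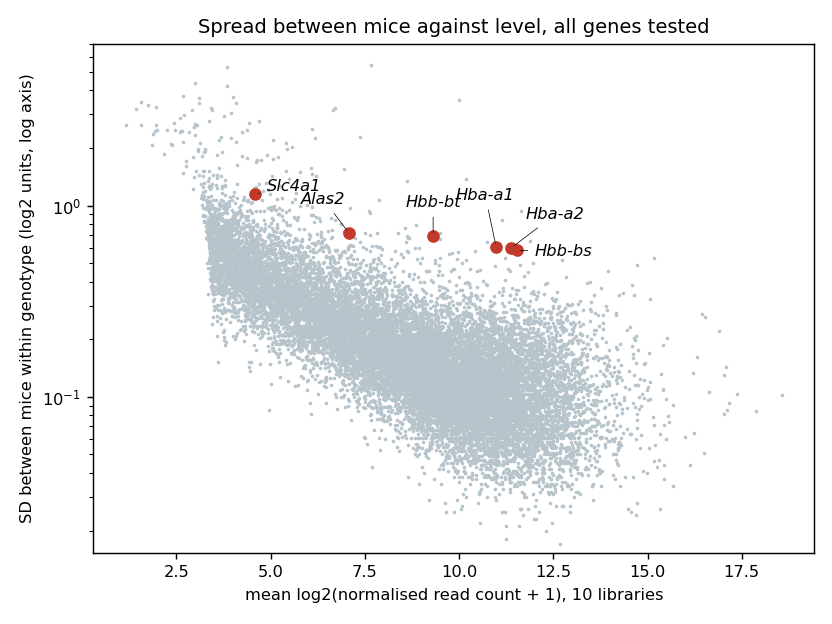
SD between mice within genotype (log2 units, logarithmic axis) against the mean log2 level over 10 libraries for each of the 17020 genes tested (grey), with the 6 erythroid transcripts in red. The 6 red points lie at 0.58 to 1.15, at the upper edge of genes of like level.

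The main comparison asked whether loss of 1 *Arid1b* allele went with a change of these transcripts. All 6 had a higher mean in HT, the libraries of the genotypes overlapped for each, and none of the differences passed the test. Means are given with their SD over 5 mice, HT first. *Hba-a1* averaged 2555 ± 970 against 1832 ± 807 normalised counts, and *Hba-a2* 3272 ± 1168 against 2500 ± 1216. *Hbb-bs* had 3626 ± 1295 and 2757 ± 1218, and *Hbb-bt* 833 ± 332 and 583 ± 341. *Alas2* had 171 ± 71.6 and 127 ± 68.6, and *Slc4a1* 41.0 ± 26.6 and 21.6 ± 23.1. The log2 fold changes, HT minus WT on the log2(value + 1) scale, were 0.49, 0.42, 0.41, 0.57, 0.48 and 1.20 in this order, with SE of 0.34, 0.34, 0.33, 0.39, 0.38 and 0.61.

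In the limma fit over 17020 genes, 0 of the 6 had an adjusted p under 0.05 (adjusted p 1.00 for each), and 0% of all genes did. The edited gene *Arid1b*, with a log2 fold change of -0.68, did not pass this fit either (limma adjusted p 0.39). Without adjustment 0 of the 6 were under 0.05, with limma p from 0.0711 (*Slc4a1*) to 0.239, where 3.41% of all genes were. The exact permutation test of the genotype labels gave p = 0.238 for *Hba-a1*, 0.325 for *Hba-a2* and *Hbb-bs*, 0.254 for *Hbb-bt*, 0.317 for *Alas2* and 0.127 for *Slc4a1*. For 6 of 6 members the libraries of HT and WT overlapped, and over all genes 0.629% did not. A log2 fold change above 0 was found for 46.4% of all genes, and one of at least 0.4, a limit chosen after the values were seen, for 1.97%. Because the 6 vary together, their shared direction is not 6 separate observations.

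The 95% limma intervals show what these 10 mice leave possible. The HT level could lie between 0.826 and 2.38 times the WT level for *Hba-a1*, between 0.802 and 2.20 times for *Hbb-bs*, between 0.783 and 2.49 times for *Alas2* and between 0.92 and 5.72 times for *Slc4a1*. The size of the difference rested on single WT mice. Without WT 5 the log2 fold change rose to 0.70 for *Hba-a1*, 0.67 for *Hba-a2*, 0.63 for *Hbb-bs*, 0.86 for *Hbb-bt*, 0.74 for *Alas2* and 1.70 for *Slc4a1*. Unadjusted limma p was then under 0.05 for 5 of the 6 (0.00558 for *Slc4a1* to 0.0484 for *Hbb-bs*) and 0.0540 for *Alas2*, where 1.59% of all genes were under 0.05 and higher in HT, and the adjusted p was 0.999 for each. Without WT 4 the log2 fold change was 0.32, 0.25, 0.26, 0.37, 0.23 and 0.73 in the same order of genes. Without HT 4 it was 0.39, 0.35, 0.31, 0.45, 0.44 and 1.296.

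**Figure D4:**
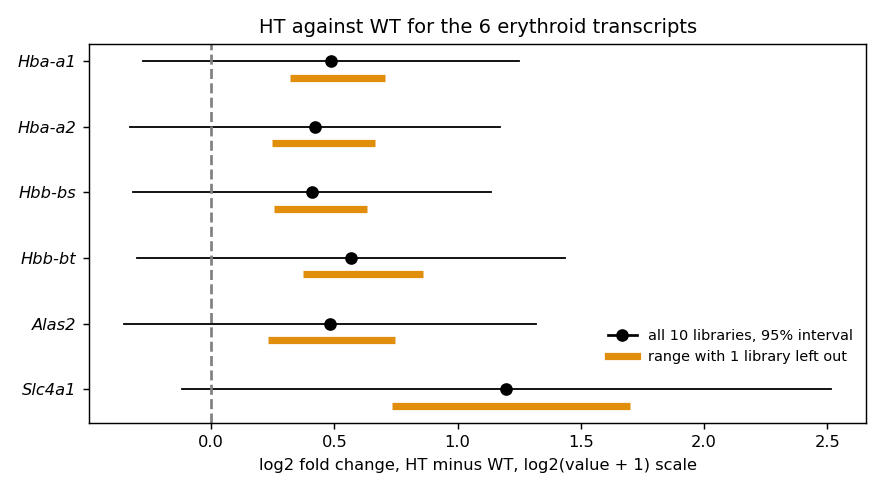
Log2 fold change, HT minus WT, of each erythroid transcript with its 95% limma interval (black) and the range of the estimates with single libraries omitted (orange). Every black interval includes 0, and every orange range lies above 0.

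In bulk tissue, more red cells in a brain and more globin mRNA per red cell cannot be told apart. The other genes of the red cell lineage were read from 8 lists with 91 genes, chosen with earlier results of these data known, of which 69 were tested. HT exceeded WT for 36 and fell below it for 33, and the median log2 fold change was 0.0032 against -0.0074 over all genes tested. None had an adjusted p under 0.05. Unadjusted limma p was under 0.05 for 1 higher and 1 lower gene, where 1.47% and 1.93% of all genes were. Many of these genes are also used by neurons and glia. The summed counts of each list ranged from 1.09-fold to 1.34-fold between the lowest and the highest library.

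Among the heme synthesis enzymes 7 of 14 were higher and 7 lower, with a median of -0.0019. *Fech* encodes the enzyme that inserts iron in the last step of heme synthesis. It averaged 1049 ± 79.8 against 1155 ± 80.4 normalised counts (HT first, log2 fold change -0.14, limma adjusted p 1.00). *Alas1*, the form of the first enzyme in all other cells, stayed between 878 and 1026 normalised counts in the 10 libraries, whereas *Alas2* ranged from 55.3 to 257. In the membrane and skeleton list 6 of 12 were higher and 6 lower. The water channel *Aqp1* was the lower gene under 0.05 (116 ± 15.2 in HT, 153 ± 28.4 in WT, log2 fold change -0.39, unadjusted limma p 0.0181, adjusted p 1.00), and it is also a marker of the choroid plexus.

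In the erythroid transcription factor list 4 of 9 tested genes were higher and 5 lower. *Klf1*, which drives the adult beta globin gene in precursors, had 2.04 to 8.35 normalised counts, and *Gata1* was not analysed here. The iron and signalling list had 5 of 9 higher, and the erythropoietin receptor *Epor* had 17.9 to 33.5 normalised counts. Among red cell enzymes 6 of 8 were higher, with *Car2*, carbonic anhydrase 2, at 716 ± 92.3 in HT and 634 ± 52.9 in WT (log2 fold change 0.17, adjusted p 1.00). Among genes of reticulocyte maturation 3 of 6 were higher. In the list of heme breakdown and free hemoglobin 3 of 6 were higher, and the heme transporter *Slc48a1* was the higher gene under 0.05 (2111 ± 95.6 in HT, 1912 ± 69.5 in WT, log2 fold change 0.14, unadjusted limma p 0.0122, adjusted p 1.00). *Hmox1*, the inducible heme oxygenase, had 119 to 174 normalised counts and a log2 fold change of -0.0070.

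The other globins did not have the same set of highest libraries as the members. Neuroglobin (*Ngb*), the globin of neurons, had 103 to 190.4 normalised counts, and cytoglobin (*Cygb*), found in many cell types, 780 to 1045. Both were highest in HT 4, the library that stood apart over all genes. Their log2 fold changes were 0.088 and 0.10. The theta globins *Hbq1a* and *Hbq1b* had 6.46 to 19.5 and 9.34 to 26.7 normalised counts, and *Adgb*, androglobin, 22.5 to 55.9 with the highest value in WT 4. None of these 5 had an unadjusted limma p under 0.05.

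Markers of other cells of blood, vessels and neighbouring tissue were summed over each list. Of 14 leukocyte genes 3 had values, and their sum was 16.6 to 65.9 normalised counts in HT, highest in HT 3, and 17.5 to 23.8 in WT. *S100a9*, a neutrophil gene, had 34.6 in HT 3 and 4.59 to 12.4 in the other 9 libraries. *Ngp* was also highest in HT 3, with 27.2, whereas *Cd79a* was lowest in HT 3, with 4.14, and highest in WT 2, with 12.6. Of 10 platelet genes 4 had values, with sums of 603 to 1031 in HT and 660 to 951 in WT. Most of this sum was *Gp1bb*, with 360 to 812 and the highest value in HT 4. The defining platelet gene *Pf4* had 16.95 (HT 1) to 37.0 (WT 2). *Itga2b* had 37.8 (HT 2) to 75.5 (HT 3), and *Itgb3* 131 (HT 4) to 182 (HT 3). The 15 endothelial genes summed to 9988 to 12022 in HT and 10588 to 11317 in WT, a range of 1.20-fold against 3.04-fold for the 4 globins, and HT 3 had the lowest sum. The 11 mural cell genes summed to 5062 to 5922 in HT and 4776 to 6427 in WT, with WT 5 lowest. The microglia and macrophage list (11 genes) summed to 1575 to 2542 in HT and 1794 to 2992 in WT, and the meninges and fibroblast list (10 genes) to 15616 to 24684 and 16420 to 43399. The choroid plexus list was the single list whose sums did not overlap, with 7252 to 10190 in HT and 10802 to 14573 in WT. Most of this sum was *Ttr*, transthyretin, with 6181 to 9013 in HT and 9509 to 12999 in WT, and it was the 1 gene of the 10 whose libraries did not overlap, where 0.629% of all genes did not. The part of these cells in the globin values was not tested.

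The genes whose pattern was most like that of the members were sought among the other 17014 tested genes, by Pearson r over the 10 libraries with the mean standardised log2 value of the 6 members. Each member had r of 0.887 (*Slc4a1*) to 0.991 (*Hba-a2*) with the mean of the other 5. The 10 most similar genes were *Rab33a* (0.93), *Cc2d1a* (0.93), *Cdk5rap1* (0.92), *Arrb2* (0.91), *Dmtn* (0.91), *Rnf10* (0.90), *mt-Rnr2* (0.90), *Rsad2* (0.89), *Rapgef4* (0.89) and *Coil* (0.89). These values are a description over libraries that the globin values split into separate clusters, ranked from many genes, and carry no p.

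*Dmtn*, dematin, bundles actin in the red cell skeleton and was the single gene of the 69 in the red cell lists with r above 0.8, where 0.517% of all genes were. Its level was nevertheless 4216 to 4975 normalised counts, a range much narrower than that of the globins. *Cdk5rap1*, a mitochondrial tRNA-modifying enzyme, ranged from 102 (WT 4) to 235 (HT 4), and *Rsad2*, an interferon-induced antiviral gene, from 14.8 (WT 3) to 42.6 (HT 4). The mitochondrial 16S ribosomal RNA *mt-Rnr2* ranged from 38383 (WT 4) to 48395 (HT 4). None of the 10 genes had an unadjusted limma p under 0.05 for HT against WT.

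**Figure D5:**
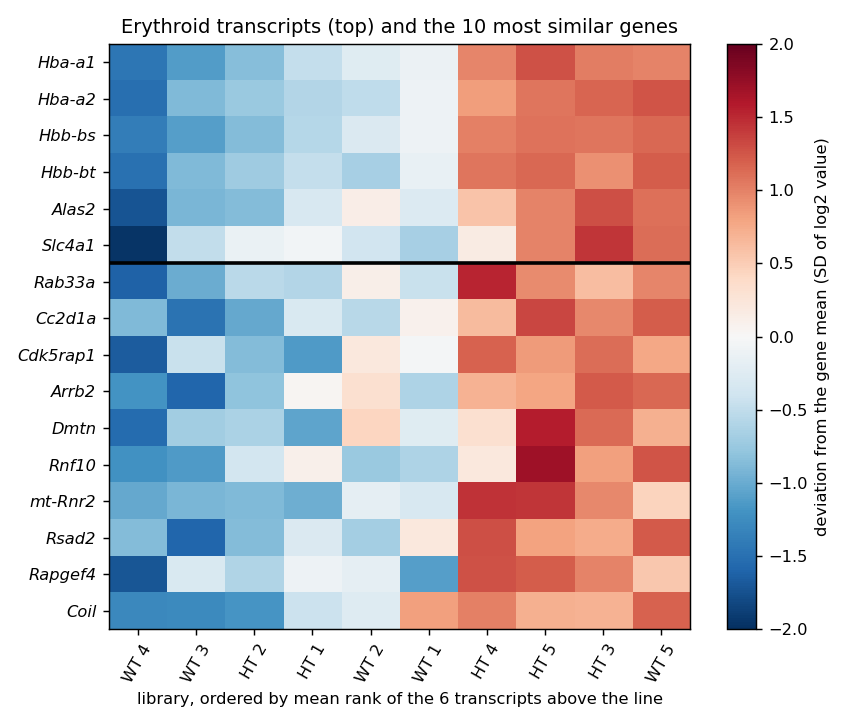
Deviation of log2 values from the mean of each gene, in SD of that gene, for the 6 erythroid transcripts (above the line) and the 10 most similar genes (below), with libraries ordered by the mean rank of the 6. HT 4, HT 5, HT 3 and WT 5, at the right, are above the mean for all 16 genes.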

How the data were processed

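Whole-brain RNA of 10 P3 mice was sequenced as paired-end, poly-A-selected libraries. Per the study's methods, the authors quantified reads with Salmon 1.1.0 against GRCm38 with GC bias correction, imported gene-level estimates with tximport and divided them by DESeq2 1.30.1 size factors. The deposited table holds this signal, a normalised read count per gene and library. At most 27.7% of small values were whole multiples of 1 read (tolerance 0.02), so whole reads were not recovered and no count test was run. The annotation release and the low-count filter are not given in the sources used here. Symbols, positions and lengths came from GENCODE M21 (18431 of 18444 genes matched), and promoters from RefSeq (5 of the 6 members matched).

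The test was limma 3.58.1 under R 4.3.3 (trend, robust, no covariate, two-sided) on the log2 of value + 1. Genes with a mean of at least 10 were tested, with Benjamini-Hochberg adjustment over 17020 genes and a threshold of 0.05. Single genes also had a two-sided exact permutation test, whose smallest p is 0.00794. The fit was tested on simulated data. Replicates are separate mice. Counting error was not modelled, and precision came from the spread between mice. Members and gene lists were chosen with earlier results of these data known. The text names the members, *Arid1b*, the 10 most similar genes and, from the lists, genes with the smallest p and defining markers. Alternatives covered the pseudocount, filter, scaling, sample weights, replicate block, length and GC trend, and each library left out. *Hbb-y* and *Ahsp* were not analysed here.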

Additional observations from a re-analysis of the deposited data

Results flagged for a closer look

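In each group of 5 libraries, a library was singled out when its gap to the nearest library took more than 0.71 of the range of the group. Of 118 groups checked, 7 met this, where chance gives about 5.9. Among the members this was the *Slc4a1* value of WT 5, 62.1 normalised counts against 3.34 to 16.1 in the other WT libraries. HT 4 was the lowest HT library for *Arid1b* (1505 normalised counts) and for *Xpo7* (1987), an exportin gene of the reticulocyte maturation list. WT 5 was the highest WT library for *Rnf10* (8061) and the lowest for the astrocyte gene *Aldh1l1* (1865). HT 3 was the highest HT library for the neutrophil gene *S100a9* (34.6), and WT 3 the highest WT library for the fibroblast gene *Lum* (297).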

How the results depend on the processing

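No member passed the adjusted threshold in any of the 19 alternatives, and the log2 fold change of each member was above 0 in every alternative in which it was tested (*Slc4a1* fell outside the filter at a mean of 100). Over all genes 0 passed with all libraries, 2 with sample weights, 1 with the length and GC trend removed, and 0 to 2 with single libraries omitted, the 2 being without HT 4. *Arid1b* was past the threshold in these 3 alternatives. Direction turned for 3 genes, none of which passed in any of them: *Xpo7* (-0.046) to 0.034 with sample weights and 0.050 without HT 4, *Gp1bb* (-0.104) to 0.024 without HT 1, and *Itga2b* (0.058) to -0.032, -0.0067 and -0.024 without HT 3, HT 5 and WT 3. Over all single omissions these genes ran from -0.089 to 0.050, from -0.27 to 0.024 and from -0.032 to 0.21. The labels give both genotypes the numbers 1 to 5 without saying that a number marks a litter or batch, and the correlation of deviations between same-numbered libraries ran from -0.104 to 0.0926, so they were not read as pairs, although HT 1, HT 2, HT 3 and HT 5 each matched best with the same number. With the replicate number as a block 0 genes passed, and *Slc4a1* had an unadjusted limma p of 0.0238 (adjusted p 1.00). The planned median of correlations pooled over 10 libraries and its alternatives were not used, since the globin values split the libraries into clusters. Depth limits *Slc4a1*, which had few reads in some libraries.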
